A study of Homo sapiens with 6 samples.

Results

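The Krüppel-like factors (KLFs) are zinc-finger transcription factors, and 10 of them, KLF2, KLF4, KLF5, KLF6, KLF7, KLF9, KLF10, KLF11, KLF13 and KLF16, were followed here through every array probe that the platform annotation gives to their symbols. Of these 10 genes, 9 had a probe, with 12 probes among the 47321 on the array. KLF11 has no probe in the annotation used and was not analysed here. A gene was counted as measured when a probe had a detection p-value under 0.05 on both arrays of at least 1 cell line, and 7 of the 10 KLF genes were measured, against 17225 genes and unnamed probes in all.

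The arrays were run on total RNA from stable HEK293T lines, human embryonic kidney cells that carry the SV40 large T antigen. The lines were shlinc00598#2 and shlinc00598#3, which express different short hairpin RNAs (shRNAs) against the long noncoding RNA linc00598, and shCTL, the control shRNA line against which both were set. All lines were grown in the same medium and none received a further treatment. There were 2 arrays of each line, labelled replicate 1 and replicate 2, and 6 arrays in all. The hairpins were delivered from the pLKO.1 vector, whether a line is a clone or a pool is not given in the sources used here, and the single control line serves both knockdown lines. Nothing in the labels ties a replicate to a culture of its own, and the p-values therefore measure only the spread between these arrays, which may be technical.

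KLFs share a carboxy-terminal block of C2H2 zinc fingers with the SP factors, and both families bind GC-rich and CACCC-type elements in promoters. The parts outside the fingers differ: KLF2, KLF4, KLF5, KLF6 and KLF7 are mostly known as activators that work with the acetyltransferases p300 and CBP, whereas KLF9, KLF10, KLF11, KLF13 and KLF16 carry a SIN3-interacting stretch and are mostly known as repressors. Many KLF transcripts are short-lived and are induced rapidly by serum, growth factors, hormones or shear stress, KLF2 and KLF4 through the kinase ERK5 and the MEF2 factors, KLF10 by TGF-β and KLF9 by glucocorticoid and thyroid hormone.

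Between 44.1% and 46.8% of the probes of an array were detected, and the median intensity before normalization lay between 105.4 and 126.2. All 6 arrays lay on 1 BeadChip. The deposited tables before and after normalization disagreed on the line or replicate of 4 of the 6 arrays, and which is right was not tested. The labels of the table before normalization, whose columns the sample descriptions name, were used throughout. With the other labels 0 of the 7 KLF genes were called in the comparisons refitted with them, that between the replicates included. Each replicate of the other labels mixes arrays of both replicates used here, so this refit cannot check the replicate calls below. The fit with the replicate as a block was not repeated with those labels. In a principal component analysis the leading axis carried 69.4% of the variance and set the replicate 2 arrays apart from the replicate 1 arrays in all 3 lines. No probe is named for LINC00598, so the knockdown itself could not be read from these arrays. Of the 6 markers chosen for HEK293T cells, KRT8, KRT18, VIM, NEFL and NEFM were detected on all 6 arrays and PAX2 was not measured. None of the 4 endothelial markers was detected on all 6 arrays, nor any of the 3 leukocyte markers with a probe (of 4 in the list), and of the 4 fibroblast markers COL1A1 was. In these bulk samples, fewer cells that express a gene and less of its RNA in each cell cannot be told apart.

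The sequences just before the transcription starts of KLF2, KLF6, KLF9 and KLF4 are shown. The first 3 of these genes are among the 4 called lower in replicate 2. KLF4 is the measured KLF whose brighter probe lay above control in both knockdown lines, which its second probe did not. The window of KLF10, the other gene called, is not shown here. Each is the 250 bases before a RefSeq start on GRCh38.p14, on the gene's own strand, 5′ to 3′. Capitals mark the GC box (GGGCGG) and the CACCC element on either strand and, in KLF2, the MEF2 element. KLF2 is from chr19:16324576-16324825 (plus strand), KLF6 from chr10:3785210-3785459 (minus strand), KLF9 from chr9:70414658-70414907 (minus strand) and KLF4 from chr9:107489770-107490019 (minus strand).
KLF2: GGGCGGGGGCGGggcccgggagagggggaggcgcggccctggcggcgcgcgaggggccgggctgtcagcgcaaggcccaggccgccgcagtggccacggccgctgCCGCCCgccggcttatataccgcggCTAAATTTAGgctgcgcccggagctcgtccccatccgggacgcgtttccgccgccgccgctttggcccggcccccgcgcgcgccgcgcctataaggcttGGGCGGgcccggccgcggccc
KLF6: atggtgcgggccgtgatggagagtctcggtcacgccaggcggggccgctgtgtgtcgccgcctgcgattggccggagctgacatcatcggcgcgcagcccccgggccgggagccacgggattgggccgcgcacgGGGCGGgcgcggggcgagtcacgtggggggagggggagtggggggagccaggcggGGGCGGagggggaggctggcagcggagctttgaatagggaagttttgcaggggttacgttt
KLF9: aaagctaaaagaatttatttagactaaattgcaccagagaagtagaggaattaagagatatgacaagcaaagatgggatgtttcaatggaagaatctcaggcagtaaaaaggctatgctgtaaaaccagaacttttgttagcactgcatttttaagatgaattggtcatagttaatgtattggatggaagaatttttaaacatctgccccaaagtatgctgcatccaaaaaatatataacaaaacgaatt
KLF4: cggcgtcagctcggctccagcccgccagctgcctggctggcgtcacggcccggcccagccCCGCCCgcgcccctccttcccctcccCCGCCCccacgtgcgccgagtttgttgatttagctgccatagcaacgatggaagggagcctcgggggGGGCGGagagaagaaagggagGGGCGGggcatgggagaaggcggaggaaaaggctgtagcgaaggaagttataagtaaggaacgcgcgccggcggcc

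The KLF2 and KLF4 windows held 4 GC boxes each and the KLF6 window 2, whereas the KLF9 window held none. None of the 4 windows had a CACCC element. The KLF2 window had 1 MEF2 element, which began at position -120 from the start. The base composition followed the same division, with 80.0% G and C in the KLF2 window, 72.4% in KLF6, 69.2% in KLF4 and 32.4% in KLF9, against a median of 58.0% over all windows. Over the 14 windows of the 9 KLF genes that RefSeq's table holds, a GC box was found in 9 windows and a CACCC element in 6, and the KLF2 window was the only one with a MEF2 element. Among all 35116 windows of the same length these shares were 42.6%, 54.7% and 0.515%. A match of this kind describes letters in the window and shows no binding.

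The largest differences in the KLF genes lay between the replicates, not between the lines. KLF2 and KLF6 were more than 2-fold lower in replicate 2 than in replicate 1, and KLF10 and KLF9 were lower to a smaller degree, each in all 3 lines. Against shCTL, KLF2 had the lowest fitted values of the measured KLF genes, with a mean of both knockdown lines 1.37-fold below control, and this difference did not pass the test. KLF4 was the only measured KLF gene whose brightest probe lay above control in both knockdown lines. Values below are log2 intensities after quantile normalization, and in each pair the replicate 2 array comes before the replicate 1 array.

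**Figure D1:**
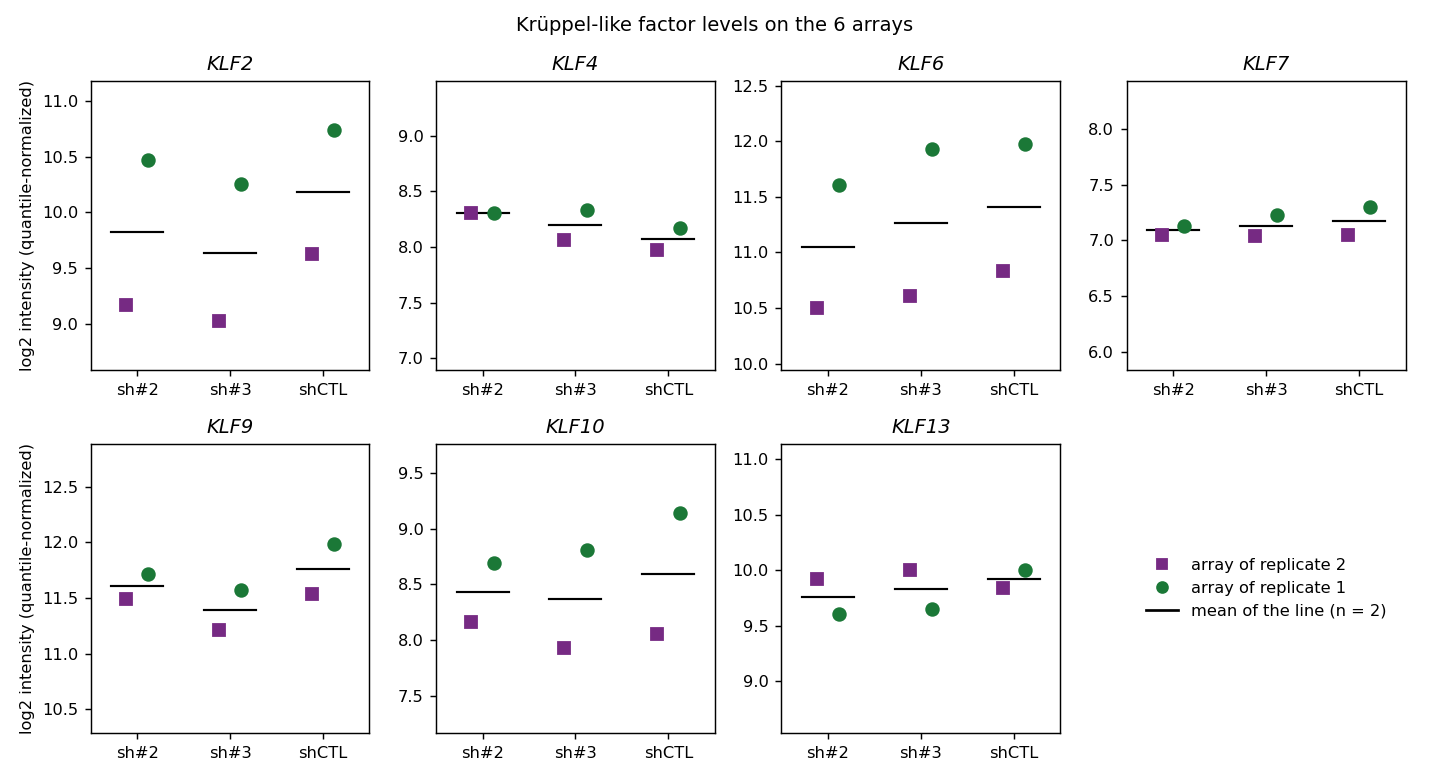
Log2 intensity (vertical axes, of equal span and centred on each gene) of the 7 measured KLF genes on every array, with shlinc00598#2 (sh#2), shlinc00598#3 (sh#3) and shCTL from left to right. Squares are replicate 2, circles replicate 1 and bars the mean of a line (n = 2). In KLF2 and KLF6 the squares lie more than 1 unit below the circles in every line, whereas the bars of the lines lie closer together.

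KLF2, a regulator of quiescence in T cells and of the flow response in endothelium, gave 9.17 and 10.47 in shlinc00598#2 cells, 9.02 and 10.26 in shlinc00598#3 cells, and 9.63 and 10.74 in shCTL cells. Within each replicate the control array was the highest and the shlinc00598#3 array the lowest. Across replicates the groups overlapped, because each replicate 1 array of the knockdown lines lay above the replicate 2 array of the control. The same order was present before normalization, with probe intensities of 554, 515 and 756 in the shlinc00598#2, shlinc00598#3 and shCTL arrays of replicate 2. The line means were 9.82 ± 0.92 in shlinc00598#2, 9.64 ± 0.88 in shlinc00598#3 and 10.18 ± 0.79 in shCTL (SD, n = 2 each).

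KLF4, a pluripotency and epithelial differentiation factor, was read by 2 probes. The brighter probe gave 8.31 and 8.30 in shlinc00598#2 cells, 8.06 and 8.34 in shlinc00598#3 cells, and 7.97 and 8.17 in shCTL cells. In both replicates the knockdown arrays lay above the control array, and the replicate 2 array of shlinc00598#3 lay below the replicate 1 array of shCTL, so the groups overlapped. The second probe gave 7.63 and 7.98, 7.47 and 7.86, and 7.61 and 8.01 in the same order of lines. On this probe shlinc00598#3 was below control in both replicates and shlinc00598#2 differed from control by less than 0.05, so the probes of KLF4 did not show the same order of lines.

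KLF6, an injury- and growth-factor-induced KLF described as a tumour suppressor, gave 10.50 and 11.61 in shlinc00598#2 cells, 10.60 and 11.93 in shlinc00598#3 cells, and 10.83 and 11.97 in shCTL cells. The control array was again the highest of each replicate, and here shlinc00598#2 was the lowest. The 3 arrays of replicate 2 lay between 10.50 and 10.83, below all 3 arrays of replicate 1. KLF7, known for its part in neuronal development, was close to the background, with 7.05 and 7.13 in shlinc00598#2 cells, 7.04 and 7.23 in shlinc00598#3 cells, and 7.05 and 7.30 in shCTL cells. Its 3 replicate 2 arrays were nearly equal, and folds are compressed at this level.

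In the repressor group, KLF9, a hormone-responsive KLF, gave 11.49 and 11.72 in shlinc00598#2 cells, 11.22 and 11.57 in shlinc00598#3 cells, and 11.53 and 11.99 in shCTL cells. The order was that of KLF2, with shCTL the highest and shlinc00598#3 the lowest in each replicate, although shlinc00598#2 and shCTL were almost level in replicate 2. KLF13, a regulator of the chemokine gene CCL5 in T cells, gave 9.92 and 9.61 in shlinc00598#2 cells, 10.01 and 9.65 in shlinc00598#3 cells, and 9.84 and 10.00 in shCTL cells. KLF13 was thus higher in replicate 2 in the knockdown lines and lower in replicate 2 in the control line.

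KLF10, the TGF-β-inducible early gene, was read by 3 probes. The brightest gave 8.16 and 8.69 in shlinc00598#2 cells, 7.93 and 8.81 in shlinc00598#3 cells, and 8.05 and 9.14 in shCTL cells. In replicate 1 the control array was the highest, and in replicate 2 it lay between the knockdown arrays. The second probe gave 7.42 and 8.14, 7.29 and 8.01, and 7.26 and 8.31 in the same lines, again with the control highest in replicate 1 only. The third probe was detected on 4 of the 6 arrays, lay between 6.89 and 7.25, and did not separate the replicates.

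**Figure D2:**
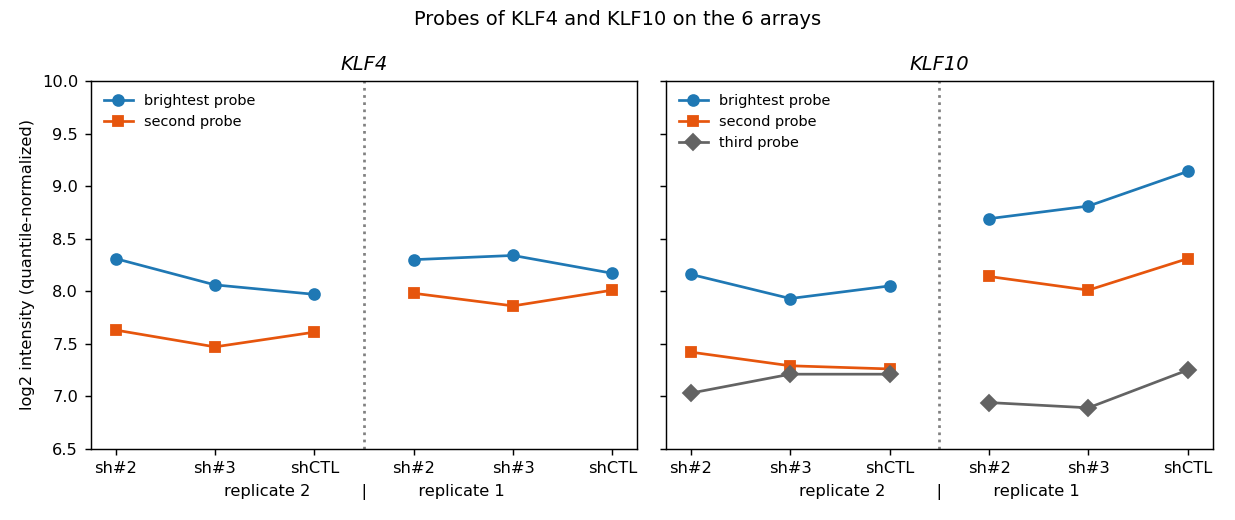
Log2 intensity (vertical axis) of the 2 probes of KLF4 (left) and the 3 probes of KLF10 (right) on the 6 arrays, replicate 2 left of the dotted line and replicate 1 right of it, each with shlinc00598#2, shlinc00598#3 and shCTL in that order. The brighter 2 KLF10 probes differ by -0.83 each (replicate 2 minus replicate 1) and the third by 0.12, and the KLF4 probes differ in which line is highest.

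KLF5 and KLF16 were not well above background and were not tested. The KLF5 probe was detected on 2 of the 6 arrays, those of shlinc00598#2 and shlinc00598#3 in replicate 1, at detection p-values of 0.0468 and 0.039, and its values spanned 6.72 to 7.01. The KLF16 probe was detected on 0 of the 6 arrays, at 6.46 to 6.80.

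The difference between the replicates was tested with the line as a term in limma, with Benjamini-Hochberg adjustment over all genes. KLF2 fell by 1.22 on the log2 scale in replicate 2 (SE 0.09, 2.32-fold lower, adjusted p = 3.16e-05). By line, the difference of KLF2 was -1.3 in shlinc00598#2, -1.24 in shlinc00598#3 and -1.11 in shCTL, so knockdown and control cells showed it alike in direction and nearly in size. KLF6 fell by 1.19 (SE 0.09, 2.29-fold lower, adjusted p = 3.72e-05), with differences of -1.11, -1.33 and -1.14 in the same lines. KLF10 fell by 0.83 (SE 0.11, 1.78-fold lower, adjusted p = 0.000592), and by line its difference was -0.53 in shlinc00598#2, -0.88 in shlinc00598#3 and -1.09 in shCTL. Its size depended on the probes read, since the mean of its 3 probes gave -0.51 (adjusted p = 0.00296). KLF9 fell by 0.35 (SE 0.09, 1.27-fold lower, adjusted p = 0.0134), a call that was lost with the neqc background correction (-0.35, adjusted p = 0.0508) and without either shlinc00598#3 array (-0.34, adjusted p = 0.0707).

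The other measured KLF genes did not pass this test. The difference was -0.15 for KLF4 (SE 0.09, adjusted p = 0.22), -0.17 for KLF7 (SE 0.09, adjusted p = 0.159) and 0.17 for KLF13 (SE 0.11, adjusted p = 0.273). Without either shCTL array, which leaves the knockdown lines to give the difference, KLF13 was called higher in replicate 2 (0.33, adjusted p = 0.0183). The second KLF4 probe differed by -0.38, and with the mean of both probes KLF4 would have been called lower (-0.27, adjusted p = 0.032). In all, 4 of the 7 measured KLF genes were called lower in replicate 2, where 17.8% of all genes and unnamed probes were, and 0 of 7 were called higher, where 18.8% were. A difference of at least 2-fold in the lower direction was rarer, with 1.15% of all genes, and KLF2 and KLF6 were the KLF genes among them. Of all 17225, 96 had a lower fitted value than KLF2 and 106 a lower one than KLF6. The median difference over the 7 KLF genes was -0.35, against 0.02 over all genes, of which the middle part between the quartiles ran from -0.17 to 0.20.

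Some of the markers moved between the replicates as well. Of the 5 measured HEK293T markers, 3 were called lower in replicate 2, where 17.8% of all genes and unnamed probes were. They were the neurofilament gene NEFM (-1.49), the keratin gene KRT8 (-0.81) and VIM (-0.27), whereas KRT18 (-0.21) and NEFL (-0.07) were not called. The summed intensity of the HEK293T list was 10647 to 10831 in replicate 2 and 12841 to 14948 in replicate 1. Most of this sum is VIM, at a mean log2 intensity of 13.27 against 9.62 for KRT8, the next brightest measured marker. The fibroblast list, of which only COL1A1 and LUM were measured, summed to 558 to 584 in replicate 2 and 636 to 717 in replicate 1. The unmeasured endothelial list summed to 370 to 375 in replicate 2 and 381 to 404 in replicate 1. For the unmeasured leukocyte list the sums were 295 to 313 and 296 to 303. The part of the markers in the KLF difference was not tested. Each array of a BeadChip has a position of its own, and effects of position and of replicate cannot be told apart.

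For linc00598 knockdown against control, the fit of the 6 arrays without a block gave no call among the KLF genes. The mean of both knockdown lines minus shCTL was -0.45 for KLF2 (SE 0.55, 95% interval -1.82 to 0.91, adjusted p = 1). For KLF9 it was -0.26 (SE 0.19), for KLF6 -0.24 (SE 0.54) and for KLF10 -0.20 (SE 0.40). KLF13 stood at -0.13 (SE 0.16), KLF7 at -0.06 (SE 0.13) and KLF4 at 0.18 (SE 0.13), and the adjusted p was 1 for all 7. By limma 0 of the 7 KLF genes were called in either direction, as were 0% of all genes. At an unadjusted p under 0.05 there were 329 genes (1.91%), none of them a KLF. In this fit the replicate difference is part of the spread of each line, and the interval of KLF6 (-1.59 to 1.10) accordingly held changes of more than 2-fold either way.

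**Figure D3:**
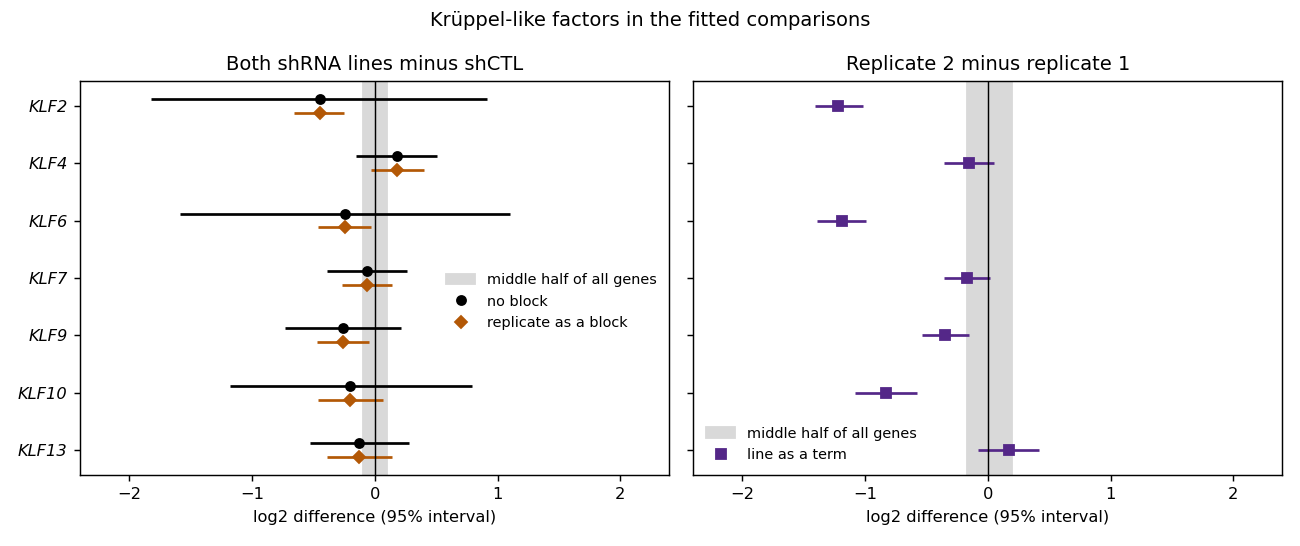
Fitted log2 differences (horizontal axes, with 95% intervals) of the 7 measured KLF genes, for both shRNA lines minus shCTL (left; black circles without and orange diamonds with the replicate as a block) and for replicate 2 minus replicate 1 (right). Grey bands span the quartiles of all genes, -0.10 to 0.10 on the left and -0.17 to 0.20 on the right. KLF2 and KLF6 lie at -1.22 and -1.19 on the right, and on the left the blocked interval of KLF2 runs from -0.66 to -0.25.

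With the replicate number as a block, the SE of KLF2 was 0.09 and the 95% interval ran from -0.66 to -0.25, and the adjusted p of 0.107 was above the threshold. With the block and scaling to the median in place of quantile normalization, a combination chosen after seeing the data, KLF2 was called lower than control (-0.42, adjusted p = 0.0444). KLF9 had an adjusted p of 0.282 (interval -0.47 to -0.05) and KLF6 one of 0.303 (-0.46 to -0.03) in this fit. KLF2, KLF6 and KLF9 were the 3 of 7 KLF genes with a lower value and an unadjusted p under 0.05, a condition that 7.58% of all genes met. After adjustment 0 of the 7 and 0.00581% of all genes, which is 1 gene, were called lower. The other KLF genes had blocked adjusted p-values of 0.439 (KLF4), 0.5 (KLF10), 0.676 (KLF13) and 0.795 (KLF7).

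Each knockdown line was also set against control on its own. KLF2 differed by -0.36 in shlinc00598#2 (blocked SE 0.11, adjusted p = 0.207) and by -0.54 in shlinc00598#3 (blocked SE 0.11, adjusted p = 0.125). A fold of at least 1.4 was the criterion of the study, and KLF2 in shlinc00598#3, at 1.46-fold lower, was the 1 KLF gene of 7 that met it in that line, as did 0.946% of all genes in the lower direction. In shlinc00598#2 KLF2 was 1.28-fold lower and 0 of the 7 KLF genes met the criterion in the lower direction, which 1.11% of all genes met. In both lines together 0 of the 7 met it in either direction, against 0.284% lower and 0.0581% higher among all genes. KLF6 lay at -0.35 in shlinc00598#2 (blocked adjusted p = 0.222) and at -0.14 in shlinc00598#3. KLF9 showed the opposite order, with -0.15 in shlinc00598#2 and -0.37 in shlinc00598#3 (blocked adjusted p = 0.27).

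Set against each other, the knockdown lines did not differ in any KLF gene by the test. The difference of shlinc00598#2 minus shlinc00598#3 was 0.21 for KLF9 (95% interval -0.33 to 0.75), 0.18 for KLF2 (-1.39 to 1.76) and -0.22 for KLF6 (-1.76 to 1.33), with an adjusted p of 1 for each. With the block these intervals were -0.03 to 0.45 for KLF9, -0.05 to 0.42 for KLF2 and -0.46 to 0.03 for KLF6. Among all genes 0% were called, and 204 had an unadjusted p under 0.05.

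Within a replicate, each knockdown array can be set against the control array of the same replicate, which gives 4 values per gene. For KLF2 these were -0.46 and -0.26 in shlinc00598#2 and -0.61 and -0.48 in shlinc00598#3, so all 4 were below control. KLF6 also had 4 negative values, -0.34 and -0.37 in shlinc00598#2 and -0.23 and -0.05 in shlinc00598#3. KLF9 was negative in all 4 by quantile normalization, at -0.04 and -0.27 in shlinc00598#2 and -0.32 and -0.41 in shlinc00598#3, but the first of these changed sign with scaling to the median. KLF7 was negative in all 4 by at most 0.17, and its value of -0.001 in replicate 2 of shlinc00598#2 also changed sign with that scaling. KLF4 was positive in all 4 on its brighter probe, with 0.33 and 0.14 in shlinc00598#2 and 0.09 and 0.17 in shlinc00598#3, and not on the mean of its 2 probes.

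Thus 4 of the 7 KLF genes lay below control in all 4 comparisons, where 16.1% of all genes did, and 1 lay above it, where 15.5% did. With scaling to the median the 4 become 2, KLF2 and KLF6. The 4 values share 2 control arrays, so a deviation of 1 control array enters 2 of them. KLF10 and KLF13 did not keep a sign. KLF10 was 0.11 and -0.45 in shlinc00598#2 and -0.12 and -0.33 in shlinc00598#3, and KLF13 was 0.07 and -0.39 in shlinc00598#2 and 0.16 and -0.35 in shlinc00598#3.

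**Figure D4:**
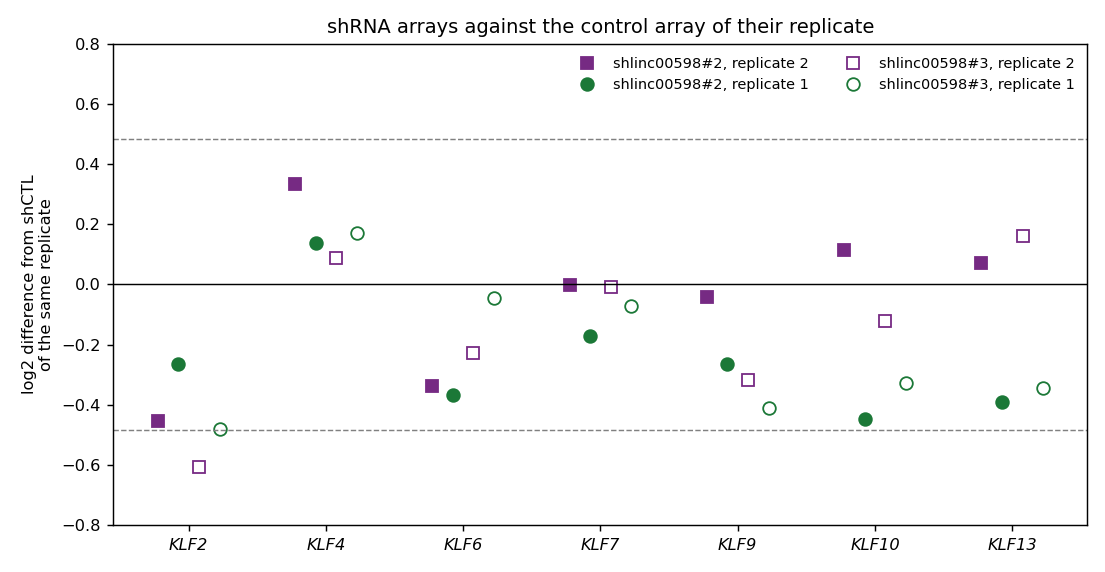
Log2 difference of each knockdown array from the shCTL array of the same replicate (vertical axis) for the 7 measured KLF genes. Filled symbols are shlinc00598#2, open symbols shlinc00598#3, squares replicate 2 and circles replicate 1, and dashed lines mark 1.4-fold. All 4 symbols of KLF2 lie between -0.61 and -0.26 and those of KLF13 divide by replicate, whereas for KLF9 and KLF7 the symbol nearest 0 changes sign with scaling to the median.

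The knockdown difference was set between the replicates in a further fit, with the 2 shRNA arrays of a replicate as 1 group. The control had 1 array in each replicate, so the spread in this fit is that between the 2 different shRNA lines and not between repeated arrays. KLF13 had the largest value, 0.49 (SE 0.18, adjusted p = 0.803), with a mean difference from control of 0.12 in replicate 2 and -0.37 in replicate 1. KLF10 followed with 0.38 (SE 0.21, adjusted p = 0.854). By limma 0 of the 7 KLF genes and 0% of all genes were called, and at an unadjusted p under 0.05 there were 1056 genes (6.13%), KLF13 among them.

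Of the 8 other KLF genes, only KLF12 and KLF15 were measured, and neither was called in the knockdown or replicate comparison. KLF12, a CtBP-binding repressor, lay at -0.19 in the mean of both knockdown lines and at 0.10 between the replicates, and KLF15, known in kidney podocytes and in metabolism, at -0.05 and -0.11. Of the 9 SP factors 5 were measured. SP3 was lower in replicate 2 (-0.27, adjusted p = 0.0379) and SP8 higher (0.54, adjusted p = 0.00418), and SP1, SP2 and SP4 were not called. The medians of the SP factors were 0.00 for knockdown and -0.04 for the replicates, where those of all genes were 0.00 and 0.02.

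Of the 11 genes of the MEK5-ERK5-MEF2 arm upstream of KLF2 and KLF4, 8 were measured, and 2 were called lower and 2 higher in replicate 2, where 17.8% and 18.8% of all genes were. MAP2K5, which encodes MEK5, was lower in replicate 2 (-0.74, adjusted p = 0.000252), as was MEF2A (-0.41, adjusted p = 0.0114). MAPK7, which encodes ERK5, was higher in replicate 2 (0.52, adjusted p = 0.00168), as was the upstream kinase gene MAP3K3 (0.32, adjusted p = 0.0286). Against control, CCM2, a brake on this arm in endothelium, had the smallest blocked p of the list, at -0.23 (blocked adjusted p = 0.395). PDCD10, a partner of CCM2, stood at 0.10. The list's median was 0.01 for knockdown and -0.07 for the replicates.

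Of the 11 TGF-β genes 9 were measured. The inhibitory SMAD genes SMAD6 (0.60, adjusted p = 0.000815) and SMAD7 (0.45, adjusted p = 0.00408) were higher in replicate 2, and TGIF1, which encodes a SMAD co-repressor, was lower (-0.43, adjusted p = 0.00661). SMAD7 is itself known as repressed by KLF10. Against control, SMAD3, a transducer of the signal, lay at -0.30 (blocked adjusted p = 0.295), SMAD7 at 0.22 (blocked adjusted p = 0.366) and the receptor gene TGFBR2 at -0.16. The medians of 0.01 for knockdown and 0.06 for the replicates were near those of all genes.

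All 7 genes of the glucocorticoid list, chosen for KLF9, were measured. TSC22D3, which encodes the glucocorticoid-induced leucine zipper, was lower in replicate 2 (-1.02, 2.02-fold, adjusted p = 0.000106), and the phosphatase gene DUSP1 was lower by more (-1.38, 2.59-fold, adjusted p = 5.05e-05). The clock gene PER1 (0.33, adjusted p = 0.0341) and the kinase gene SGK1 (0.31, adjusted p = 0.0305) were higher. TSC22D3 was also the 1 gene of all the pathway lists that differed by at least 1.4-fold from control in both knockdown lines, at -0.63 in shlinc00598#2 and -0.61 in shlinc00598#3, with a blocked adjusted p of 0.0902. This criterion was met in the lower direction by 0.284% of all genes. ZBTB16, another glucocorticoid-induced gene, stood at -0.35 (blocked adjusted p = 0.214), and the receptor gene NR3C1 at -0.10. The list had a median of -0.12 for knockdown and -0.05 for the replicates.

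The 9 co-regulators were all measured, and 2 were called lower and 2 higher in replicate 2, again beside 17.8% and 18.8% of all genes. CREBBP (-0.38, adjusted p = 0.00972) and KAT2B (-0.43, adjusted p = 0.00434), which encode acetyltransferases, were the lower ones, and EP300, the gene for p300, was not called (-0.21, adjusted p = 0.0814). SIN3A (0.51, adjusted p = 0.00145) and HDAC1 (0.28, adjusted p = 0.0273), which encode subunits of the SIN3 complex, were the higher ones, and SIN3B (0.06) and HDAC2 (0.00) were not called. Against control, KAT2B (-0.17), SIN3A (-0.12), CTBP2 (0.14) and CTBP1 (0.09) had the smallest blocked p-values, and none was called. The list had a median of 0.06 for knockdown and 0.00 for the replicates.

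Of the 8 genes for ubiquitin ligases and a deubiquitinase that act on KLF proteins, 7 were measured. WWP1, which encodes a ligase for KLF2 and KLF5, lay at -0.69 in shlinc00598#2 but at -0.08 in shlinc00598#3, with a blocked adjusted p of 0.139 for the mean, and it was higher in replicate 2 (0.45, adjusted p = 0.00317). FBXW7, another ligase gene, stood at -0.18 and -0.28 in the same lines, and BTRC at -0.10 and -0.30. SIAH1 was lower in replicate 2 (-0.42, adjusted p = 0.00578). The list's median was -0.08 for knockdown and 0.05 for the replicates.

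Of 15 genes reported as KLF targets, 8 were measured, and most of the endothelial and lymphoid ones were not. CDKN1A, which encodes p21 and is reported as activated by KLF4 and KLF6, was 4.18-fold lower in replicate 2 (-2.06, adjusted p = 4.5e-06), a larger difference than that of any KLF gene. MAOA was lower as well (-0.57, adjusted p = 0.00114), whereas CCND1, the gene for cyclin D1, was higher in replicate 2 (0.74, adjusted p = 0.00139). SMAD7, also on this list, was higher in replicate 2 too (0.45, adjusted p = 0.00408). Against control CDKN1A lay at -0.61 in shlinc00598#2 and at -0.13 in shlinc00598#3 (blocked adjusted p for the mean 0.18), CCND1 at -0.23 and -0.49 (blocked adjusted p 0.276), and LAMA1 at -0.11 and -0.20. SMAD7 lay above control in the same lines, at 0.20 and 0.23 (blocked adjusted p for the mean 0.366). The list's median was -0.11 for knockdown and 0.06 for the replicates. Across all the pathway lists 0 genes were called against control by limma, with or without the block.

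KLF2 varied most over the 6 arrays among the measured KLF genes, with an SD of 0.71. The 5 genes whose levels followed it most closely were BRSK1 (Pearson r = 0.999 over 6 arrays), ZNF250 (0.998), PTPRM (0.997), HSD17B14 (0.997) and HES1 (0.997). They encode an AMPK-related kinase, a zinc-finger protein, a receptor tyrosine phosphatase, a steroid dehydrogenase and a transcriptional repressor of the Notch pathway. BRSK1 differed by -1.20 between the replicates and by -0.48 between knockdown and control, close to KLF2 in both, whereas HES1 differed by -0.77 and -0.24. Among the KLF genes, r with KLF2 was 0.95 for KLF6, 0.94 for KLF10, 0.90 for KLF9, 0.86 for KLF7, 0.34 for KLF4 and -0.44 for KLF13. All these values rest on 6 arrays that share 1 normalization and the replicate difference, and no test was made of them.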

How the data were processed

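Total RNA from 3 HEK293T lines was read on 6 arrays of an Illumina HumanHT-12 v4 BeadChip, 2 for each line. The authors exported average probe intensities on the linear scale before normalization with GenomeStudio 2011.1, and these deposited intensities gave all values reported. The deposited detection p-value of each probe sets it against the negative control beads of its array. The authors' processed table, which holds deposited log2 values after quantile normalization, served as an alternative, because 4 of its 6 columns hold values that the table before normalization gives to another sample. The sample descriptions name the columns of the table before normalization, so its labels were used. By those labels the processed columns hold the arrays sorted by line, shCTL, then shlinc00598#2, then shlinc00598#3, replicate 1 before replicate 2 in each. Which labels are right was not tested. No per-sample column was left unused (0).

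Quantile normalization and the log2 transformation were done with limma 3.58.1 in R 4.3.3, without subtracting background. A probe was kept if both arrays of any line had a detection p below 0.05, which left 21282 of 47321. In the annotation 30113 probes have 1 symbol, 8 have several and 17200 have no symbol. The brightest kept probe stood for its gene (12192 genes), and unnamed probes (5033) were tested singly.

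Contrasts were fitted with limma (lmFit, eBayes) to all 6 arrays, and p-values were adjusted by Benjamini-Hochberg over all 17225, with a threshold of 0.05. Deviations from the line means correlated across genes between same-numbered arrays (0.827 for the knockdown lines with each other, 0.742 for shlinc00598#2 and 0.760 for shlinc00598#3 with shCTL). The numbers were therefore taken to pair the arrays, on the data and not on the labels, and the fit was repeated with the replicate as a block. The fits were tested on simulated data with planted knockdown differences larger than any KLF difference from control. That test does not cover differences as small as those of the KLF genes. The number of arrays limits the precision.

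The text names every KLF gene of the list, the pathway genes that passed 1.4-fold in both lines or were called in a comparison, up to 4 per list by the smallest blocked p, and the 5 genes most like KLF2. The members and lists were chosen with earlier results of these data known. Promoter windows are those of RefSeq on GRCh38.p14. Other settings were neqc (offset 16), scaling to the median, the processed table, all probes unfiltered, a filter at 0.01 on every array, the mean of a gene's kept probes, the methods' t-test, folds of 1.3 and 1.5, and each array left out.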

Additional observations from a re-analysis of the deposited data

How the results depend on the processing

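With the replicate as a block, no KLF call changed. KLF2 kept its blocked sign with each array left out (-0.53 to -0.37), as did KLF6 (-0.29 to -0.20) and KLF9 (-0.34 to -0.18), whereas KLF13 ranged from -0.37 to 0.12 and was above 0 without the replicate 1 control array. These combinations were chosen after seeing the data, as were the block with scaling to the median, which called 1 KLF gene lower than control (KLF2, -0.42, adjusted p = 0.0444), and the block with neqc, the stricter filter or the mean of probes, which called 0. The methods' t-test called 0 of the 7 KLF genes and, after Benjamini-Hochberg adjustment, 0 of all genes against control (717 before it).

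Scaling to the median left 2 KLF genes below control in all 4 comparisons and turned the line difference of KLF13 to 0.065 and the replicate dependence of KLF6 to 0.0046. The mean of a gene's probes put KLF4 in shlinc00598#3 at -0.0053 and left 0 KLF genes above control in all 4 comparisons. The cause was not tested.

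Without the block, leaving out 1 array unbalanced the replicates and turned signs. The mean of both lines minus control ranged from -1.01 to 0.10 for KLF2, -0.82 to 0.33 for KLF6, -0.74 to 0.35 for KLF10, -0.19 to 0.059 for KLF7, -0.49 to -0.034 for KLF9, -0.21 to -0.037 for KLF13 and 0.087 to 0.28 for KLF4. For shlinc00598#2 the ranges were -1.01 to 0.29 (KLF2), -0.92 to 0.22 (KLF6), -0.21 to 0.037 (KLF7), -0.38 to 0.072 (KLF9) and -0.71 to 0.38 (KLF10). For shlinc00598#3 they were -1.16 to 0.075 (KLF2), -0.0076 to 0.27 (KLF4), -0.80 to 0.53 (KLF6), -0.16 to 0.081 (KLF7), -0.77 to 0.32 (KLF10) and -0.27 to 0.085 (KLF13). Between the knockdown lines they were -0.47 to 0.83 (KLF2), -0.03 to 0.24 (KLF4), -0.88 to 0.45 (KLF6), -0.14 to 0.047 (KLF7), -0.38 to 0.50 (KLF10) and -0.24 to 0.11 (KLF13). The KLF genes at least 1.4-fold lower in both lines numbered 0 to 3, and 3 only without the replicate 2 control array. Of the calls between replicates, 3 to 4 were lower and 0 to 1 higher. The KLF9 call was lost without either shlinc00598#3 array, and KLF13 was the call gained without either shCTL array. At the level of KLF7 the signal is near background and limits what a fold can show.

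With the labels of the processed table, an alternative chosen after seeing the data, same-numbered arrays no longer deviated together (correlations of -0.685, -0.698 and 0.718). Each replicate so labelled mixes arrays of both replicates used in the main text. Between the replicates so labelled 0 KLF genes were called lower, with -0.80 for KLF2, -0.46 for KLF6, -0.33 for KLF10, -0.32 for KLF9 and 0.088 for KLF4. In the 4 within-replicate comparisons 0 were lower in all and 0 higher in all. Against control, the mean of both lines was -0.11 for KLF2, -0.23 for KLF9, -0.068 for KLF4 and 0.0077 for KLF6. In shlinc00598#2 KLF4 lay at -0.082 and KLF6 at 0.15, and in shlinc00598#3 KLF4 lay at -0.054. Between the knockdown lines KLF4 differed by -0.028, KLF6 by 0.28 and KLF7 by 0.054. The replicate dependence of the knockdown difference was 1.15 for KLF2, -0.082 for KLF4 and 1.53 for KLF6, and none was called. With the labels used throughout, KLF10 differed between the replicates by -1.09 with neqc and -0.51 with the mean of its probes.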
